A study of Mus musculus with 8 samples.

Results

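The levels and changes of 10 imprinted genes were followed in cultured primary myotubes of the mouse, fused muscle cells with many nuclei that arise from myoblasts. The members were chosen by symbol: H19, Dlk1, Meg3, Rian, Mirg, Peg3, Cdkn1c, Grb10, Mest and Plagl1, each matched by 1 Ensembl identifier among the 53647 listed in each library. All 10 passed the filter on low counts and were among the 15603 genes tested. The study exposed wild-type myotubes to a cytokine of the interleukin-6 family and counted poly(A) RNA per gene. The cells came from limb muscle of pups 2 to 3 days old and differentiated in 5% horse serum. They were left as controls or given interleukin 6 (IL6), leukaemia inhibitory factor (LIF) or oncostatin M (OSM) at 250 ng/ml for 48 h, and all groups were harvested 72 h after differentiation. Each of the 4 groups had 2 libraries. The labels do not say whether these are separate animals, litters or dishes, so p-values measure only the spread between these libraries, which may be technical.

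An imprinted gene is expressed mainly from the allele inherited from 1 parent, under the control of DNA methylation laid down in the germ line. Many imprinted genes act on growth, and in muscle several are known to be high in fetal and early postnatal tissue and in regenerating fibres. H19, Meg3, Rian and Mirg are maternally expressed long non-coding RNAs that also carry microRNAs or small nucleolar RNAs. Cdkn1c and Grb10 are maternally expressed growth inhibitors, and Dlk1, Mest, Peg3 and Plagl1 are expressed mainly from the paternal allele. The counts do not separate the parental alleles, so nothing here measures imprinting itself.

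Several of the RNAs are hosts of microRNAs, and the host's counts do not measure the mature products. In the RefSeq table for GRCm38.p6, 39 mature sequences lay inside 5 of the members: 2 in H19, 3 in Meg3, 6 in Rian, 26 in Mirg and 2 in Mest. The sequences below belong to hosts whose counts are described further on, with the seed (bases 2 to 8 from the 5′ end) in capitals, followed by the single pair of hosted microRNAs that shared a seed, both from Mirg.
mmu-miR-675-5p: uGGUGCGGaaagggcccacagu
mmu-miR-675-3p: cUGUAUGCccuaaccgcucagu
mmu-miR-770-5p: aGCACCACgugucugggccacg
mmu-miR-770-3p: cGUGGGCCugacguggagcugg
mmu-miR-335-5p: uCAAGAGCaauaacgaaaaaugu
mmu-miR-335-3p: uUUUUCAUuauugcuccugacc
mmu-miR-453: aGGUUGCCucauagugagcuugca
mmu-miR-496a-5p: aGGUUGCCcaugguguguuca
The first pair comes from H19 (miR-675-5p at chr7:142577112-142577133, minus strand), the second from Meg3 (miR-770-5p at chr12:109563710-109563731, plus strand) and the third from Mest (miR-335-5p at chr6:30741314-30741336, plus strand).

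Promoter windows of 300 bases (250 before the RefSeq start and 50 after it, GRCm38.p6) were in the table for 8 of the 10 members, with 12 windows in all. They were searched for 3 palindromic motifs, each of which reads the same on both strands: TTCNNNGAA, the spacing bound by STAT factors, TGACGTCA, the cAMP response element, and CAGCTG, an E-box of the kind bound by myogenic factors. TTCNNNGAA was in 1 of the 12 windows, a share near the 8.3% of the 32851 windows in the table. Windows 2 and 3 of Mest overlap almost wholly and are counted apart. TGACGTCA was in 2 of them, against 1.79% of all windows, and CAGCTG in 1, against 16.3%. The windows that hold the first 2 motifs are printed. Meg3 and Rian, which lie in the same domain, both fell with LIF and OSM, while Peg3, with the same element as Meg3, did not pass the test. Dlk1, Grb10 and Plagl1 also fell with both, and their windows held none of the 3 motifs. Mest fell too, with only CAGCTG. A link between motif and change was not tested. Capitals mark the motif. The Meg3 window is chr12:109540746-109541045 on the plus strand, with the element starting at -57 from the RNA start, and the Rian window is chr12:109603695-109603994 on the plus strand, with its motif starting at -46. For Peg3 the 250 bases before the start are given, chr7:6730420-6730669 on the minus strand, with the element at -178.
Meg3: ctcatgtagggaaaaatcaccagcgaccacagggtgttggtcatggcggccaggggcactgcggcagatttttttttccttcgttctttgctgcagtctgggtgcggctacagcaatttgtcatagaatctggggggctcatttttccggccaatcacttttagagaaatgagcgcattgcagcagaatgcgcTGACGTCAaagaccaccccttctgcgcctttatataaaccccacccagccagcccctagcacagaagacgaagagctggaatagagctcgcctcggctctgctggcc
Rian: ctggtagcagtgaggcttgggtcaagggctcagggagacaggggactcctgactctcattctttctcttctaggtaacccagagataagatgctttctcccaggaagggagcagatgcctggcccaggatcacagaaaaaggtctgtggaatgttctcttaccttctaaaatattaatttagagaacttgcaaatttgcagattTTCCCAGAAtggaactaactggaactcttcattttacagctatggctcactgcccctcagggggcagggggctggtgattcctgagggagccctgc
Peg3: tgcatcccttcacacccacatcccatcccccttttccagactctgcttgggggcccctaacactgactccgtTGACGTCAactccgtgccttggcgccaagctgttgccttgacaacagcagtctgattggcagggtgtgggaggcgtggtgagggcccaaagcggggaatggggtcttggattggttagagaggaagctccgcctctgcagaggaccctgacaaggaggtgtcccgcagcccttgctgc
A match is a description of these letters and not evidence of binding.

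The libraries held 29482077 to 30025471 counts assigned to genes. The labelled cell type was checked against marker genes. All 12 myotube markers were among the genes tested, with a summed level of 29170 to 30510 CPM (counts relative to library size, scaled by edgeR's TMM factors) in control, 25690 to 28490 in IL6, 26720 to 28400 in LIF and 25640 to 25890 in OSM libraries. IL6 replicate 1 was thus within the range of the OSM pair. Of the 12 genes, 11 had a log2 change below 0 with OSM and 10 with LIF. Myog had means of 1133 CPM in control, 841 with LIF and 786 with OSM. Des went the other way, with means of 1016, 1489 and 1250 CPM. Of 10 fibroblast markers, Lum was at 0 counts and Thy1 and Dpt stayed under 10, while the list summed to 1731 to 1807 CPM in control, 1567 to 1785 in IL6, 2052 to 2117 in LIF and 2110 to 2222 in OSM. Col3a1 made up most of that sum (a mean of 1432 CPM in control and 2017 with OSM), and the list did not move one way. With OSM Col3a1 and Pdgfra rose, Postn and Fbln1 fell, and the median log2 change of its 7 tested genes was -0.20. Col1a1, at a mean of 239 CPM in control and 78.4 with OSM, did not pass (adjusted p = 0.0858). For macrophages 5 of 8 markers, Ptprc and Adgre1 among them, stayed under 10 counts. The list summed to 3.05 to 3.49 CPM in control, 3.71 to 5.32 in IL6, 4.30 to 4.75 in LIF and 5.77 to 6.63 in OSM. All 3 tested genes of this list had a log2 change above 0 with OSM, and 1 was called higher, where 10.8% of all tested genes were. Cd68 had means of 1.98 CPM in control and 4.05 with OSM. For endothelial cells Emcn was at 0 and Kdr and Tek stayed under 10 counts, with a sum between 4.801 and 6.07 CPM.

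The marker list that moved most was that of proliferating cells. Its 12 genes summed to 1008 to 1170 CPM in control, 961 to 1028 in IL6, 749 to 806 in LIF and 329 to 376 in OSM libraries. All 12 fell with OSM and 10 fell with LIF (edgeR's quasi-likelihood test, adjusted p under 0.05). Of all tested genes, 10.6% were called lower with OSM and 3.46% with LIF. The 8 myoblast markers summed to 1272 to 1308 CPM in control, 1327 to 1354 in IL6, 1569 to 1604 in LIF and 1638 to 1684 in OSM. Itga7 and Sdc4 made up most of these sums, with means of 655 and 317 CPM in control and 778 and 522 with OSM. Myod1 had means of 107 and 111 CPM. Of the 7 tested genes, 7 had a log2 change above 0 with OSM. With LIF 5 were above 0 and 2 below, Vcam1 among the latter (means of 43.6 CPM in control and 36.8 with LIF). In these bulk libraries fewer cells of a type and less RNA per cell cannot be told apart, and the part of these lists in the results below was not tested.

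**Figure D1:**
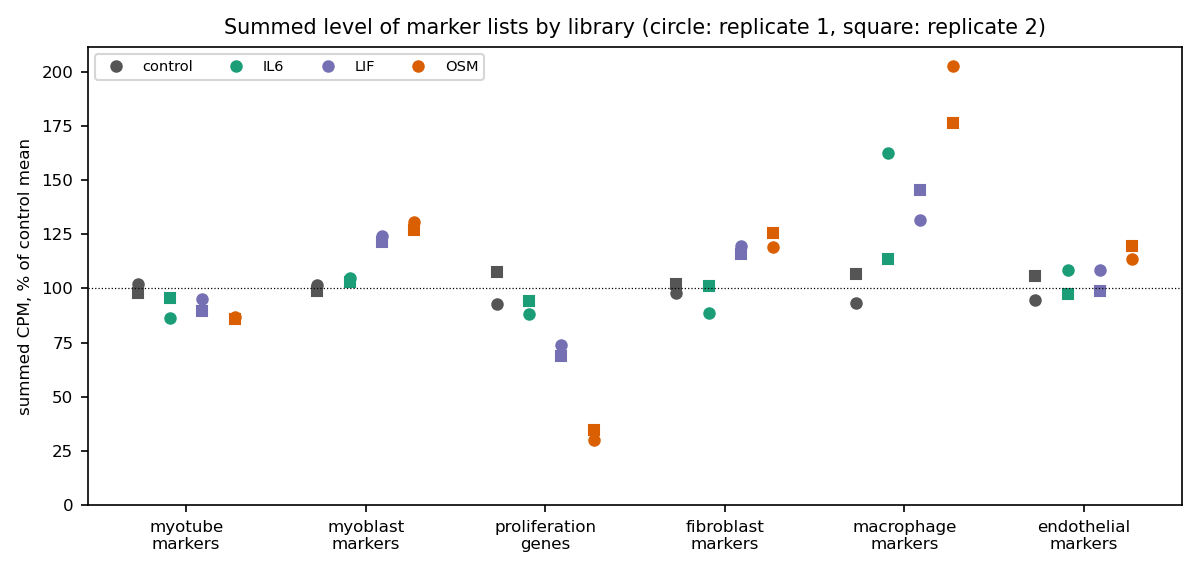
Summed CPM of 6 marker lists in each library, as a percentage of the control mean, with circles for replicate 1 and squares for replicate 2. The proliferation list stands lowest in the OSM libraries (329 and 376 CPM) and next lowest in the LIF libraries. The macrophage and endothelial sums are a few CPM in every library, and the macrophage sum is highest in the OSM libraries.

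Per length, the members spanned the whole range of expression. H19 had 11359 ± 202 CPM per kilobase of exon in control (SD, n = 2), the highest of the 15576 tested genes with an annotated length, and it was the gene with most counts in each library. Peg3 followed at 99.1 ± 1.82 CPM per kilobase, rank 403. Mest (16.6), Plagl1 (12.6) and Cdkn1c (11.7 CPM per kilobase) were above 3 in 4 tested genes, at ranks 2823, 3644 and 3877. Grb10 (2.25) and Dlk1 (1.55 CPM per kilobase) were in the lower part, and Rian (0.557), Meg3 (0.232) and Mirg (0.0557 CPM per kilobase) were near the bottom. The length used joins all annotated exons of a gene, which lowers the value of genes with many transcripts. It was 18234, 18089 and 7292 bases for Rian, Meg3 and Mirg, against 8089, 14548 and 3822 in their longest transcripts. Mirg had 5 to 16 counts in a library, so a change in it could hardly be detected at this depth.

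With OSM, 7 of the 10 members fell and none rose: Dlk1, Meg3, Rian, Cdkn1c, Grb10, Mest and Plagl1 (edgeR's quasi-likelihood test, adjusted p under 0.05, where 10.6% of all tested genes were called lower). With LIF 7 fell and none rose, Dlk1, Meg3, Rian, Cdkn1c, Grb10, Mest and Plagl1, against 3.46% of tested genes called lower. With IL6 edgeR called 0 of the 10, and 0% of all tested genes. At an unadjusted p under 0.05, 4 members were lower with IL6 (Meg3, Rian, Cdkn1c and Mest), against 2.34% of tested genes, and DESeq2 called 0 members and 19 of all genes. The median log2 change over the 10 members was -0.56 with OSM, -0.67 with LIF and -0.21 with IL6, while the median of all tested genes was within 0.01 of 0 in each. The members were chosen with earlier results of these data known. Here and below, the shares of all genes beside their counts are therefore a description and no test. The 3 comparisons share the same 2 control libraries. Both treated libraries lay below both controls for 8 members with OSM (31% of tested genes), 9 with LIF (26.8%) and 4 with IL6 (14.1%).

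**Figure D2:**
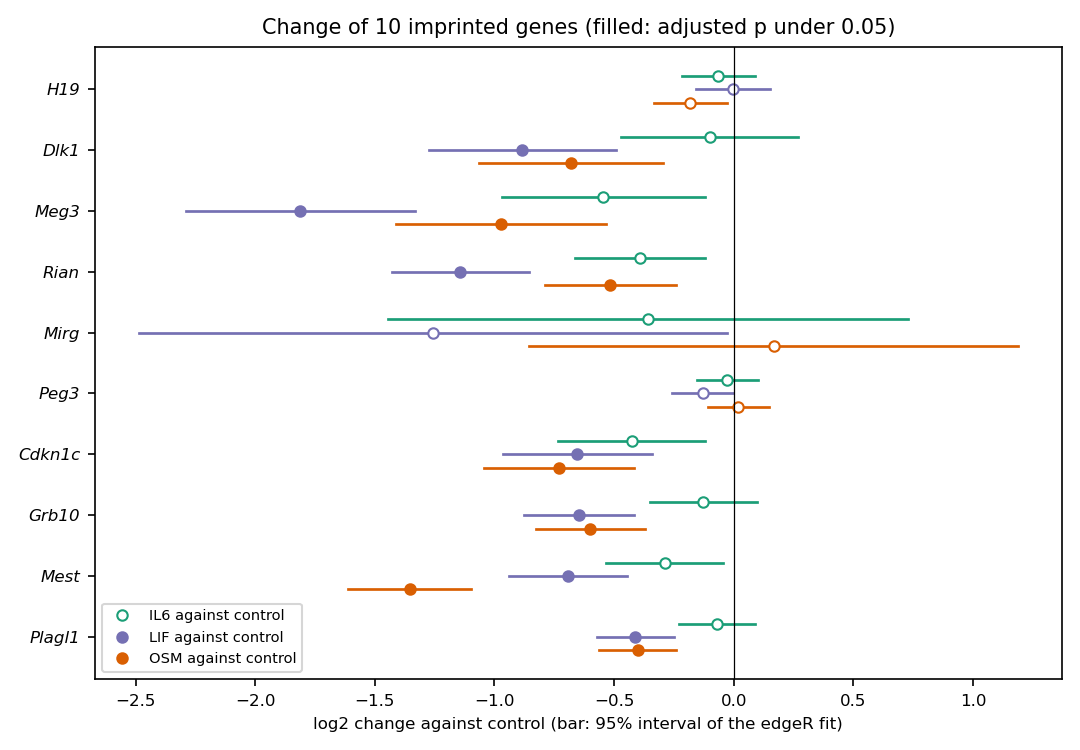
Log2 change of each member against control for IL6, LIF and OSM, with the 95% interval of the edgeR fit as a bar and a filled point where the adjusted p is under 0.05. The filled points are those of Dlk1, Meg3, Rian, Cdkn1c, Grb10, Mest and Plagl1 with LIF and OSM, and none is filled for IL6.

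H19, the most abundant member, did not pass the test in any of the 6 comparisons. Its level was 28293 and 27592 CPM in the controls, 25356 and 28070 with IL6, 28257 and 27524 with LIF, and 24657 and 24609 with OSM. The OSM libraries were the lowest 2 of the 8, but IL6 replicate 1 lay close above them. The log2 change with OSM was -0.18 ± 0.07 (SE, adjusted p = 0.0894), which did not pass the threshold, and the 95% interval ran from -0.34 to -0.03. It passed under 4 of 14 alternative settings, with adjusted p-values over the 14 from 0.0251 to 0.316. With LIF the change was -0.00 (interval -0.16 to 0.15) and with IL6 -0.06 (interval -0.22 to 0.09). In the direct comparisons H19 was 0.18 lower on the log2 scale with OSM than with LIF, without passing (adjusted p = 0.163). Its order of levels was control, LIF, IL6, OSM, and no neighbours in that order differed by the test. Igf2, the paternally expressed growth factor gene next to H19, had 84.1 and 79.7 CPM in control and 73.1 and 74.3 with OSM. Its log2 change of -0.15 with OSM did not pass (adjusted p = 0.29), nor did that of 0.03 with LIF (adjusted p = 0.904).

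The Dlk1-Dio3 domain on chromosome 12 holds 4 of the members, and the mean level of each was lowest with LIF. Meg3, a long RNA transcribed from the maternal chromosome, had 4.39 and 3.99 CPM in the controls, 2.94 and 2.80 with IL6, 0.975 and 1.41 with LIF, and 2.12 and 2.15 with OSM. All 6 treated libraries were below both controls, and the LIF pair was the lowest. Meg3 fell 3.51-fold with LIF, a log2 change of -1.81 ± 0.22 (SE, adjusted p = 0.000307), and with OSM by 0.97 ± 0.20 (adjusted p = 0.004), 1.96-fold. Its change with IL6 was -0.55 ± 0.20, with an adjusted p of 0.943. The counts behind these values were low, from 29 to 128 per library.

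Rian, the next RNA downstream and host of small nucleolar RNAs and of microRNAs, had 10.7 and 9.63 CPM in control, 7.31 and 8.16 with IL6, 4.44 and 4.75 with LIF, and 6.94 and 7.24 with OSM. The 3 treated groups were again below both controls, in the same order as for Meg3. Rian fell with LIF by 1.14 ± 0.13 (adjusted p = 0.000215) and with OSM by 0.52 ± 0.13 (adjusted p = 0.0107), and its change with IL6 was -0.39 ± 0.13 (adjusted p = 0.943). The OSM call was lost without control replicate 1 or without either OSM replicate (adjusted p up to 0.102). Over the 8 libraries the log2 CPM of Meg3 and Rian had a Pearson r of 0.975, a description over libraries of which each pair shares a treatment.

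Mirg, the microRNA host at the end of the domain, had 0.343 and 0.470 CPM in control, 0.430 and 0.202 with IL6, 0.168 and 0.167 with LIF, and 0.547 and 0.369 with OSM. The LIF libraries were the lowest and the OSM libraries overlapped the controls. Its log2 change was -1.26 ± 0.57 with LIF (adjusted p = 0.232) and 0.17 ± 0.47 with OSM (adjusted p = 0.846), neither past the threshold. Mirg and Peg3 were the 2 members whose changes with LIF and OSM differed in sign. The OSM value of Mirg turned negative without control replicate 1 or OSM replicate 1.

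Dlk1 encodes a membrane protein with EGF-like repeats, related to Notch ligands and known for its part in muscle growth. Its level was 6.996 and 10.5 CPM in control, 7.60 and 8.73 with IL6, 4.71 and 4.79 with LIF, and 5.61 and 5.33 with OSM. The controls were far apart, yet the LIF and OSM libraries were all below both of them. Dlk1 fell by 0.88 ± 0.18 with LIF (adjusted p = 0.00893) and by 0.68 ± 0.18 with OSM (adjusted p = 0.0156). The change with IL6 was -0.10 (interval -0.47 to 0.27). Control replicate 2 carried much of these values: without it the changes were -0.55 with LIF (adjusted p = 0.0819) and -0.35 with OSM (adjusted p = 0.195), both no longer past the threshold. Leaving out either library of the treated group also ended the call, at adjusted p-values from 0.0878 to 0.118.

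**Figure D3:**
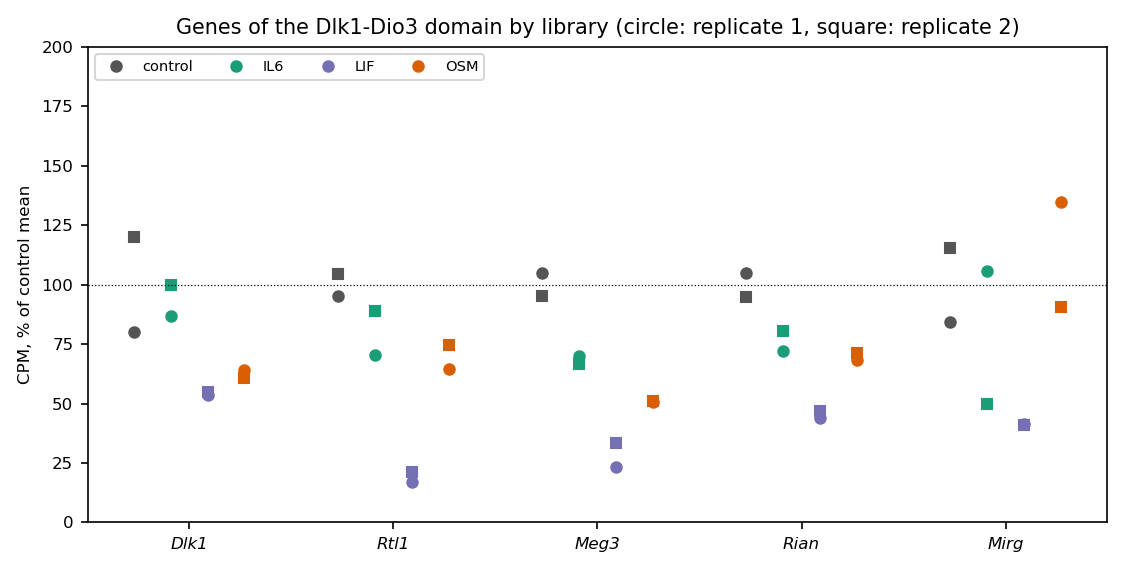
CPM of Dlk1, Rtl1, Meg3, Rian and Mirg in each library as a percentage of the control mean (dotted line), with circles for replicate 1 and squares for replicate 2. For each gene shown both LIF libraries lie below both OSM libraries, though the test did not call Dlk1 or Mirg between these groups. Begain, which did not fall with LIF by the test, is not shown. Mirg, with at most 16 counts in a library, scatters widely.

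Direct comparison of OSM with LIF called 2 members of this domain. OSM left Meg3 above its LIF level by 0.84 ± 0.24 on the log2 scale (adjusted p = 0.0475) and Rian by 0.63 ± 0.14 (adjusted p = 0.0116), 2 of the 3 members called in that comparison, where 4.01% of tested genes were called higher. The Meg3 call was lost under 7 of 14 alternatives, among them DESeq2 (adjusted p = 0.1) and leaving out any LIF or OSM library (adjusted p from 0.0671 to 0.432). The Rian call was lost without any 1 of the 4 LIF and OSM libraries (adjusted p up to 0.158). For Dlk1 the difference between OSM and LIF was 0.20, with an interval from -0.20 to 0.61. Against IL6, LIF gave lower Meg3 (-1.27, adjusted p = 0.0108), Rian (-0.75, adjusted p = 0.0108) and Dlk1 (-0.78, adjusted p = 0.0398). OSM against IL6 gave lower Dlk1 (-0.58, adjusted p = 0.0442), whereas Meg3 (-0.43) and Rian (-0.12) did not pass (adjusted p = 0.208 and 0.599). That Dlk1 call was lost under 6 of 14 alternatives, among them DESeq2 (adjusted p = 0.0522) and leaving out either OSM library (adjusted p up to 0.229 over the 14). Of the calls between LIF and IL6, that of Dlk1 was lost under 5 alternatives (adjusted p up to 0.285), that of Rian under 2 (0.162) and that of Meg3 without LIF replicate 1 (0.181).

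Rtl1, a retrotransposon-derived gene of the same domain that is expressed from the paternal allele, is no member and was named after its values were seen. It had 3.94 and 4.33 CPM in control, 2.91 and 3.67 with IL6, 0.706 and 0.870 with LIF, and 2.67 and 3.09 with OSM. The LIF pair stood far below the other 6 libraries. Rtl1 fell with LIF by 2.39 ± 0.24 (adjusted p = 5.86e-05), 5.23-fold, while its change of -0.52 with OSM did not pass (adjusted p = 0.0785). OSM was above LIF by 1.86 ± 0.25 (adjusted p = 0.000335), and this call and the LIF call were kept under all 14 alternatives. Rtl1 lies on the strand opposite to Meg3 and Rian, with 6 microRNA genes over 8.12% of its exon bases on that opposite strand in GENCODE M21. The strand setting of the counting is not given in the sources used here, so without it reads from the 2 strands cannot be told apart. Dio3, at the far end of the domain, had 0 counts in all 8 libraries, which allows up to 3 counts in a library. Begain, a listed imprinted gene beside Dlk1, did not follow the others. Its log2 change was -0.04 with LIF (adjusted p = 0.966) and 0.70 with OSM (adjusted p = 0.111). Neither passed, at 21 to 44 counts in a library.

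The maternally expressed growth inhibitors Cdkn1c and Grb10 both fell with LIF and with OSM. Cdkn1c, which encodes the cyclin-dependent kinase inhibitor p57, had 22.4 and 25.1 CPM in control, 15.0 and 20.5 with IL6, 16.4 and 13.9 with LIF, and 13.3 and 15.3 with OSM. All treated libraries were below both controls and the 3 treated groups overlapped. Cdkn1c fell by 0.73 ± 0.14 with OSM (adjusted p = 0.00312) and by 0.65 ± 0.14 with LIF (adjusted p = 0.0145). Its change with IL6 was -0.43 ± 0.14 (adjusted p = 0.943), and no direct comparison of cytokines called it. The OSM call was lost without OSM replicate 1 (adjusted p = 0.0569), and the LIF call without control replicate 2 (0.0818) or LIF replicate 2 (0.182). With IL6 it passed with no filter on low counts (adjusted p = 0.019), where 97 of all genes passed. It also passed without IL6 replicate 2 (-0.67), where more of all genes passed than with all libraries. In GENCODE M21, 30.7% of the exon bases of Cdkn1c are overlapped on the opposite strand by Gm44732, which had 0 to 6 counts in a library. The fall of this cell cycle inhibitor stood beside the fall of the proliferation list given above, and whether the 2 are related was not tested.

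Grb10, an adaptor that binds the insulin and IGF1 receptors and dampens their signalling, had 22.1 and 18.9 CPM in control, 19.6 and 17.9 with IL6, 12.9 and 13.2 with LIF, and 14.1 and 12.98 with OSM. The LIF and OSM libraries lay below the other 4. Grb10 fell by 0.65 ± 0.11 with LIF (adjusted p = 0.0024) and by 0.60 ± 0.11 with OSM (adjusted p = 0.00121), and both calls were kept under all 14 alternatives. OSM and LIF differed by 0.05, with an interval from -0.19 to 0.28. Against IL6, Grb10 was lower with OSM (-0.47, adjusted p = 0.00827) and with LIF (-0.52, adjusted p = 0.0214). The first of these was lost without OSM replicate 2 (adjusted p = 0.101) and the second without IL6 replicate 1 or either LIF replicate (up to 0.219).

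Of the 4 members expressed from the paternal allele, Mest showed the largest fall with OSM. Mest encodes a protein of the hydrolase family and hosts miR-335. It had 58.8 and 72.1 CPM in control, 49.0 and 58.2 with IL6, 38.6 and 42.5 with LIF, and 23.8 and 27.4 with OSM. The 4 groups fell in the order control, IL6, LIF, OSM with no overlap between any 2 of them. Mest fell by 1.35 ± 0.12 with OSM (adjusted p = 6.53e-06), 2.56-fold, and by 0.69 ± 0.11 with LIF (adjusted p = 0.00334), and both calls were kept under all 14 alternatives. Its change with IL6 was -0.29 ± 0.11 (adjusted p = 0.943). Between the 2 cytokines Mest differed by -0.66 ± 0.12 for OSM against LIF on the log2 scale (adjusted p = 0.00456), the third member called there, where 4.04% of tested genes were called lower. That call was lost without OSM replicate 1 (adjusted p = 0.0844). In GENCODE M21, 23.1% of the exon bases of Mest are overlapped on the opposite strand by Copg2, whose log2 change with OSM was -0.19 (adjusted p = 0.054).

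Plagl1, a zinc-finger transcription factor, had 90.3 and 106 CPM in control, 92.1 and 95.2 with IL6, 74.0 and 74.0 with LIF, and 74.4 and 74.5 with OSM. The LIF and OSM libraries were nearly level with each other and below the other 4. Plagl1 fell by 0.41 ± 0.07 with LIF (adjusted p = 0.00436) and by 0.40 ± 0.07 with OSM (adjusted p = 0.00173). OSM and LIF differed by 0.01, with an interval from -0.15 to 0.17. The LIF call was lost without either LIF replicate (adjusted p up to 0.0677), and the OSM call was kept under all 14 alternatives. Against IL6, Plagl1 was lower with OSM (-0.33, adjusted p = 0.00822) and with LIF (-0.34, adjusted p = 0.0305). Leaving out either OSM replicate ended both of these calls, and leaving out either LIF replicate ended the second (adjusted p up to 0.0953 and 0.261).

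Peg3, an abundant zinc-finger gene, had 1338 and 1303 CPM in control, 1304 and 1289 with IL6, 1186 and 1228 with LIF, and 1310 and 1367 with OSM. The LIF pair was lowest by a small margin and the OSM pair overlapped the controls. The log2 change was -0.13 ± 0.06 with LIF (adjusted p = 0.235) and 0.02 ± 0.06 with OSM (adjusted p = 0.856), with intervals from -0.26 to -0.00 and from -0.11 to 0.15. With 35270 to 40762 counts per library, counting error did not limit this gene.

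**Figure D4:**
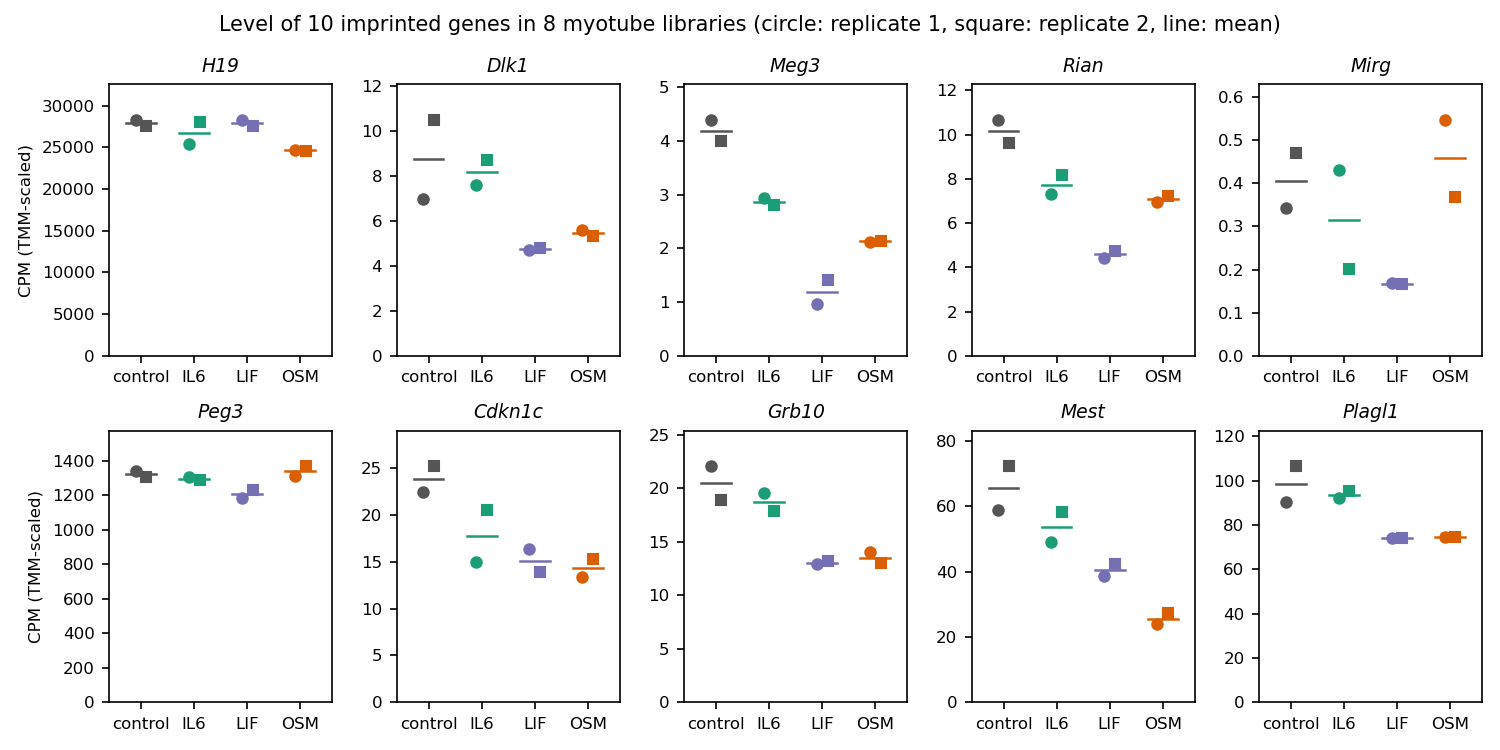
TMM-scaled CPM of the 10 members in each library, with a circle for replicate 1, a square for replicate 2 and a line at the group mean, and each axis starting at 0. H19, Peg3 and Mirg passed no test, Meg3 and Rian are lowest with LIF, and Mest is lowest with OSM.

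Over all direct comparisons, 3 members were called between OSM and LIF, 2 higher and 1 lower with OSM. Between OSM and IL6, 4 were called, all lower with OSM: Dlk1, Grb10, Mest and Plagl1 (7.52% of tested genes were called lower). Between LIF and IL6, 5 were called, all lower with LIF: Dlk1, Meg3, Rian, Grb10 and Plagl1 (1.02% of tested genes). These counts depend on which libraries are in the fit. In each fit named next, fewer of all tested genes were called as well, so a drop in calls was not particular to the members. The changes kept their direction. Over the 14 alternatives, OSM against LIF ran from 0.60 to 1.13 for Meg3, from 0.58 to 0.68 for Rian and from -0.76 to -0.56 for Mest. Without OSM replicate 1 the count between OSM and LIF was 0, without OSM replicate 2 the count between OSM and IL6 was 1, and without LIF replicate 1 the count between LIF and IL6 was 0. Against control the counts fell to 4 without OSM replicate 1 for OSM and to 4 without LIF replicate 2 for LIF.

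Beyond the members, 57 other imprinted genes were listed from general knowledge and 41 of them were tested. With OSM, 9 of the 41 were called, 4 higher and 5 lower, where 21.4% of all tested genes were called, 10.8% higher and 10.6% lower. With LIF 7 were called, 1 higher and 6 lower, where 7.66% of tested genes were called, 4.2% higher and 3.46% lower. The median log2 change of the 41 was -0.04 with OSM and -0.10 with LIF. With IL6 edgeR and DESeq2 both called 0, and 5 had an unadjusted p under 0.05 in edgeR, as did 5.1% of tested genes. Another 6 of the 57 were at 0 counts in all libraries, among them Dio3, Nnat and Calcr.

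Htr2a, the gene of serotonin receptor 2A, rose most in this list. It had 2.23 and 2.22 CPM in control, 3.57 and 2.49 with IL6, 7.19 and 8.81 with LIF, and 20.4 and 22.3 with OSM. The groups did not overlap and OSM stood highest. Htr2a rose by 3.26 ± 0.17 on the log2 scale with OSM (adjusted p = 2.87e-08) and by 1.85 ± 0.18 with LIF (adjusted p = 5.86e-05), and OSM was above LIF by 1.42 ± 0.14 (adjusted p = 4.15e-05). H13, which encodes signal peptide peptidase, rose by 0.36 with OSM (adjusted p = 0.00117), a call kept under all 14 alternatives. Blcap rose by 0.26 (adjusted p = 0.031), a call lost under 6 of the 14, among them DESeq2 (adjusted p = 0.0591), with adjusted p-values up to 0.162. The other gene called higher with OSM, Ascl2, was outside the rule for naming, with 3 to 26 counts in a library.

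Peg10, a paternally expressed gene derived from a retrotransposon, fell with OSM by 0.64 ± 0.10 (adjusted p = 0.000985) and with LIF by 0.83 ± 0.10 (adjusted p = 0.000757), from 189 and 214 CPM in control to 130 and 128 with OSM and 113 and 114 with LIF. Ddc, the gene of DOPA decarboxylase and a neighbour of Grb10, fell by 0.44 with OSM (adjusted p = 0.000474) and by 0.33 with LIF (adjusted p = 0.00973). Usp29, a neighbour of Peg3, fell by 0.42 with OSM (adjusted p = 0.0117) and by 0.49 with LIF (adjusted p = 0.0113). Ppp1r9a, a neighbour of Peg10 that encodes neurabin, fell by 0.44 with OSM (adjusted p = 0.00559) and by 0.61 with LIF (adjusted p = 0.00223). Gatm, which encodes an enzyme of creatine synthesis, fell by 0.40 with OSM (adjusted p = 0.000483), and its change of -0.09 with LIF did not pass (adjusted p = 0.447). The Usp29 calls were each lost under 3 of 14 alternatives (adjusted p up to 0.131), the Ddc call with LIF under 3 (0.155) and the Ppp1r9a call with OSM under 2 (0.0646), all on leaving out a single library. Imprinting of several of these genes is known to depend on the tissue, and the counts do not show whether they were imprinted in these cells.

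**Figure D5:**
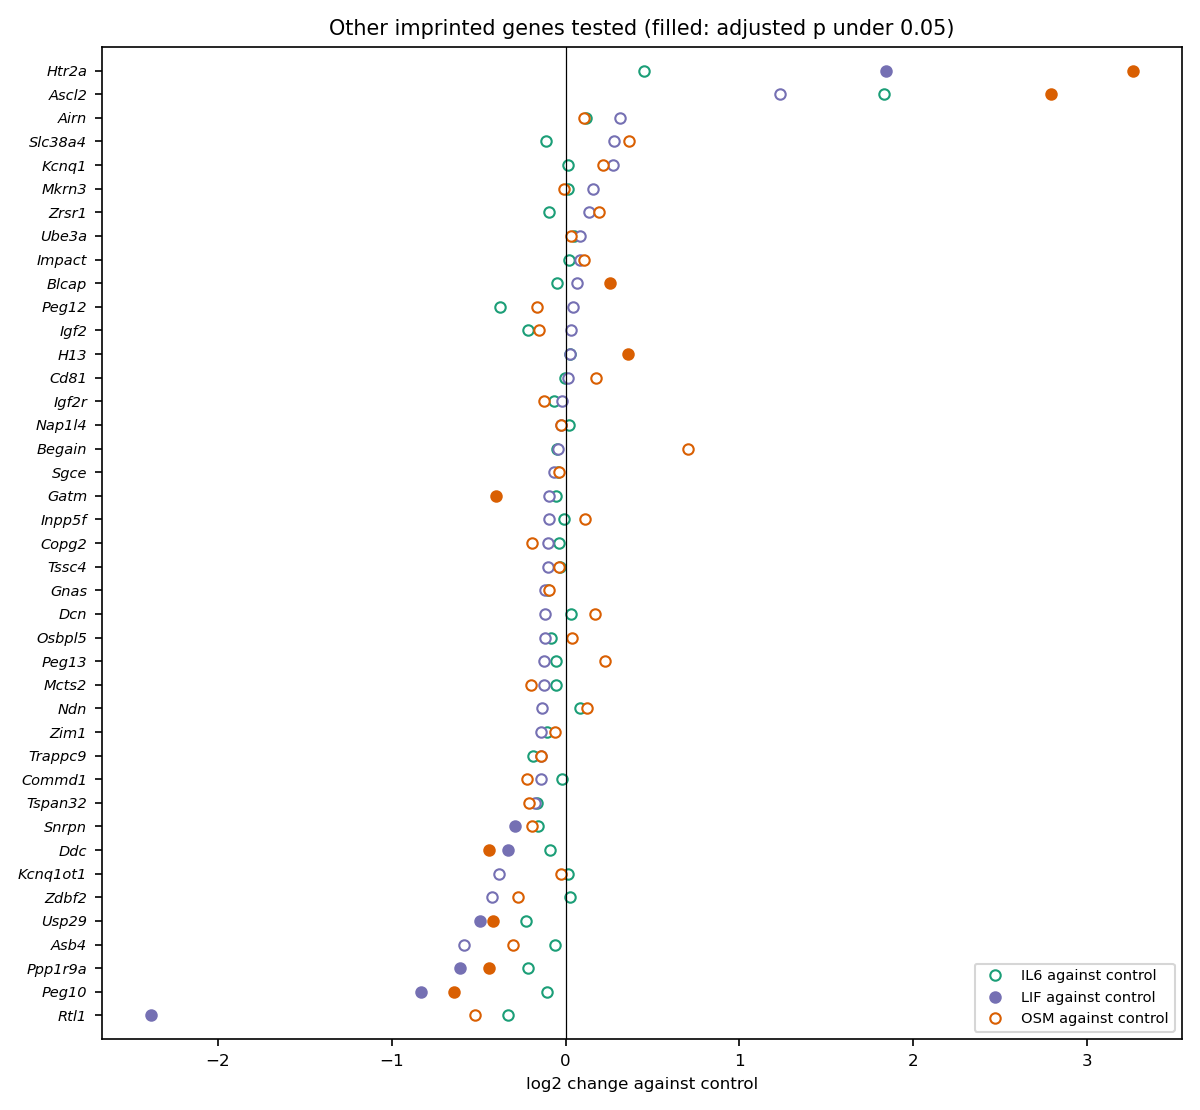
Log2 change against control of the 41 other imprinted genes tested, ordered by the change with LIF, with 1 point for each cytokine and filled points where the adjusted p is under 0.05. Htr2a is the highest with OSM (3.26) and Rtl1 the lowest with LIF (-2.39), and most of the others lie near 0.

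Factors that maintain imprints, or that lay down or remove DNA methylation, were read from a list of 18, of which 16 were tested. Beside factors for maintenance it holds Dnmt3a, Dnmt3b, Dnmt3l, Tet1, Tet2 and Tet3. With OSM 4 of the 16 fell and none rose, where 10.6% of all tested genes were called lower. With LIF 2 of the 16 fell, Uhrf1 and Zfp57, where 3.46% were called lower. Uhrf1, which brings the maintenance methyltransferase to newly copied DNA, fell by 1.56 ± 0.08 with OSM (adjusted p = 3.65e-08) and by 0.54 ± 0.08 with LIF (adjusted p = 0.00118). It had 51.6 and 50.4 CPM in control, 46.8 and 43.8 with IL6, 35.2 and 35.1 with LIF, and 16.1 and 18.6 with OSM. The 4 groups did not overlap, and their means had the same order as those of the proliferation list. Hells, a chromatin remodeller active in dividing cells, fell by 1.07 ± 0.13 with OSM (adjusted p = 6.27e-05), and its change of -0.29 with LIF did not pass (adjusted p = 0.214). Zfp57, a zinc-finger protein that binds methylated imprinting control regions, fell by 0.55 ± 0.10 with OSM (adjusted p = 0.00141) and by 0.66 ± 0.10 with LIF (adjusted p = 0.00133). The fourth, Dnmt1, the maintenance methyltransferase, fell by 0.53 ± 0.07 with OSM (adjusted p = 0.000196) and was named after its values were seen. DNA methylation was not measured, and the part of the falling proliferation list in these values was not tested.

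Known partners and targets of the members' products made a list of 13, all tested. With OSM 1 rose and 1 fell, where 10.8% of all tested genes were called higher and 10.6% lower, so the list's share of calls was near that of all genes. Cdc6, a replication licensing factor known as a target of the H19-derived miR-675, fell by 1.26 ± 0.13 (adjusted p = 1.25e-05), from 10.97 and 12.99 CPM in control to 4.65 and 5.33 with OSM. Insr, the insulin receptor to which Grb10 binds, rose by 0.19 ± 0.06 (adjusted p = 0.0438), from 107 and 113 CPM to 123 and 127. The Insr call was lost under 6 of 14 alternatives, among them DESeq2 (adjusted p = 0.0687) and leaving out either OSM library (adjusted p up to 0.22 over the 14). The median log2 change of the 13 was -0.13 with OSM, -0.04 with LIF and -0.05 with IL6.

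The genes whose pattern was most like that of H19 and of Dlk1 were looked up over the 8 libraries by Pearson r of log2 CPM, among 10870 genes. For H19 these were Pip4k2b (0.980), Slc25a39 (0.979), Nfe2l1 (0.978), Tex30 (0.975) and Zbtb7b (0.974). Of these, Slc25a39 (-0.33, adjusted p = 0.0129) and Zbtb7b (-0.31, adjusted p = 0.0179) fell with OSM by edgeR's test. For Dlk1 they were Nrep (0.995), Tmsb15a (0.988), Plagl1 (0.978), Mmaa (0.966) and Tomm34 (0.965). Plagl1 is itself a member, and Nrep fell with OSM (-0.39, adjusted p = 0.00958) and with LIF (-0.54, adjusted p = 0.00361). H19 and Meg3 had an r of 0.01 with each other. The libraries share their treatments, so these values only describe likeness.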

How the data were processed

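RNA of mouse primary myotubes was measured in 4 groups of 2 libraries, and the authors deposited unnormalised counts of reads for each gene. Libraries were made with a stranded mRNA kit, per the labels' protocols. The authors' counts were made with Trim Galore 0.6.5, STAR 2.7.3a and HTSeq 0.11.1 on GRCm39, per the submitters' processing notes, which also list DESeq2 1.34.0. The annotation release and strand setting are not given in the sources used here. Summary lines (reads in no gene, several genes or several places) held 11.7% to 12.7% of the alignments and were left out. Symbols, exon lengths and overlaps came from GENCODE M21 (GRCm38), which named 52093 of the 53647 identifiers, and sequences from RefSeq GRCm38.p6.

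Counts were tested with edgeR 4.0.16 (R 4.3.3): filterByExpr at a minimum count of 10, TMM scaling, a robust quasi-likelihood fit of 4 group means to the 8 libraries with 4 residual degrees of freedom, and Benjamini-Hochberg adjustment over 15603 genes within each of 6 contrasts, called under 0.05. The fit was tested on simulated data, with 200 genes changed in the OSM group, drawn from those with a mean of at least 100 counts. It called 19.5% of them at a 1.25-fold change, 81.5% at 1.5-fold and 99.5% at 2-fold. Changes of 1.25-fold were thus mostly missed. False calls in the simulation are not given here. The spread of each gene was estimated partly from the other genes, so its test and interval do not rest on its own libraries alone. The 95% intervals cover the spread between libraries as fitted. Alternatives were DESeq2 1.42.0, RLE factors, total counts without H19, no filter, only the groups compared, a replicate block, and leaving out each library.

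The members and lists were chosen with earlier results of these data known. All 10 members are named. Of the other imprinted genes, Igf2 and up to 5 called rises and 5 called falls with OSM at a mean of at least 100 counts are named. Of the factors for imprints and DNA methylation and of partners, up to 3 called with OSM are named, and the 5 genes most like H19 and like Dlk1.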

Additional observations from a re-analysis of the deposited data

How the results depend on the processing

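Of the log2 changes of named genes recomputed under the 14 alternatives, 930 values kept their direction and their side of the threshold, 73 kept their direction but no longer passed, 6 passed where they had not, and 13 changed sign. The sign changes were all in genes and comparisons that had not passed. With each library left out in turn, the values of these results ran as follows. H19 with LIF ran from -0.0216 (without LIF replicate 1) to 0.0169 (without LIF replicate 2), was 0.0156 without control replicate 1, and was 0.0030 with only the groups compared. H19 with IL6 ran from -0.141 to 0.0066, above 0 without IL6 replicate 1. Dlk1 and Plagl1 with IL6 ran from -0.364 to 0.224 and from -0.185 to 0.0542, both above 0 without control replicate 2. Mirg with OSM ran from -0.134 (without OSM replicate 1) to 0.43, with -0.0385 without control replicate 1, and Mirg with IL6 from -0.994 to 0.0771, above 0 without IL6 replicate 2. Peg3 with OSM ran from -0.0044 (without OSM replicate 2) to 0.0560, and H13 with LIF from -0.0206 (without control replicate 1) to 0.0764. Igf2 with LIF ran from -0.0703 (without LIF replicate 1) to 0.126, with -0.00296 without control replicate 2. The count of members called, when each library was left out in turn, ran from 4 to 8 for OSM against control, 4 to 7 for LIF against control, 0 to 1 for IL6 against control, 0 to 3 for OSM against LIF, 1 to 5 for OSM against IL6 and 0 to 6 for LIF against IL6. For the other imprinted genes the same ranges were 6 to 11, 4 to 8, 0 to 3, 2 to 5, 4 to 8 and 2 to 6. Calls over all genes also moved when a library was left out. With no filter on low counts 1 member was called with IL6, and 7 other imprinted genes each between OSM and LIF and between LIF and IL6. Over all genes the calls without the filter went from 0 to 97, from 1256 to 1742 and from 434 to 985 in these 3 comparisons. With only the 2 groups compared in the fit, OSM against LIF gave 5 members and 14 other imprinted genes. Over all genes the calls in that comparison rose from 1256 to 2928, so the gain was not particular to imprinted genes. The replicate block gave 7 members for OSM and 7 for LIF against control. It gave 5 other imprinted genes in place of 3 for LIF against IL6. That was the only count of members or other imprinted genes that it moved by over 1.5 times. Over all genes it raised the calls in every comparison, from 434 to 826 for LIF against IL6. For OSM and LIF against control they rose from 3335 to 3967 and from 1195 to 1670. The labels do not say that replicate numbers pair the libraries, and the deviations of same-numbered libraries correlated by 0.007 to 0.181. The cause of these shifts was not tested. Where an arm is left with 1 library, that library is assumed to vary like the others. With 2 libraries a group, and 5 to 16 counts for Mirg and 29 to 128 for Meg3, depth and replicate number limit how small a change could be called.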
